A study of Mus musculus with 6 samples.

Results

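*Nppa*, *Ankrd1*, *Xirp2*, *Rcan1* and *Sln* are 5 genes that cardiomyocytes are known to regulate when the heart wall is stretched or thickens. They were taken by gene symbol from a table of 4132 genes, which held all 5, and are described here in hearts of diabetic mice given a variant of fibroblast growth factor 1 or saline. All 6 mice were male *db/db* mice on the C57BLKS/J strain, listed with the genotype lepr-/- and aged 26 weeks, so both groups carried the same leptin receptor mutation in every tissue. The FGF1 variant group (3 mice) received FGF1ΔHBS, a form of FGF1 changed at its heparin-binding site, at 0.5 mg/kg by intraperitoneal injection on alternate days for 16 weeks, starting at 10 weeks of age. The vehicle group (3 mice) received saline on the same schedule. Lean mice were not analysed here, so these values hold no level of a healthy heart. The tissue was labelled heart, and which chambers were taken is not given in the sources used here.

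Each of these genes reports on a different arm of the response to load. *Nppa* encodes atrial natriuretic peptide, a hormone released by stretched cardiomyocytes that acts on the kidney and vessels through cyclic GMP, and it is made mainly in the atria of a healthy adult heart and again in the ventricle under load. *Ankrd1* encodes an ankyrin repeat protein that binds the spring region of titin and enters the nucleus, *Xirp2* an actin-binding protein of the intercalated disc, *Rcan1* an inhibitor of the phosphatase calcineurin, and *Sln* sarcolipin, a small membrane protein that slows the calcium pump SERCA and is found mainly in the atria in mice.

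The values are FPKM, the fragments on a gene scaled to transcript length and to mapped fragments, with 1 value per gene and mouse. Comparisons used limma on log2(FPKM + 1) and covered the 2041 genes whose mean reached 1 FPKM, a scale that makes the fold changes of low genes too small. The depth could be compared only by the steps between low values, which put the libraries within a factor of 1.21 of each other, with vehicle replicate 2 the deepest. A value of 0 in these files need not mean absence, since the mitochondrial gene *mt-Co2* is listed at 0 in vehicle replicate 2 and at 29918.5 to 34715.6 FPKM in the other 5 libraries. Cardiomyocyte markers were abundant in every library, with a sum over *Actc1*, *Tnnt2* and *Tnnc1* of 10800 to 12740 FPKM in vehicle and 11560 to 13170 FPKM in FGF1 variant hearts.

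The sequence in front of these genes is shown so that the elements known from their regulation can be read beside their levels. RefSeq entries on GRCm38.p6 were found for 4 of the 5 genes, all but *Sln*, and the 250 bases before each start are printed on the strand of the gene. Capitals mark matches on either strand to motifs of factors known from cardiac stress: GATA factors with the letters TGATAA and, as the other form searched, AGATAA, the homeobox factor NKX2-5 with the letters AAGTG, the stress-activated factor AP-1 with TGANTCA, the calcineurin target NFAT with its core GGAAA, and MEF2. The motifs do not overlap each other in these windows. A match is a run of letters and not a measured binding site.
*Nppa*, chr4:148000472-148000721, plus strand: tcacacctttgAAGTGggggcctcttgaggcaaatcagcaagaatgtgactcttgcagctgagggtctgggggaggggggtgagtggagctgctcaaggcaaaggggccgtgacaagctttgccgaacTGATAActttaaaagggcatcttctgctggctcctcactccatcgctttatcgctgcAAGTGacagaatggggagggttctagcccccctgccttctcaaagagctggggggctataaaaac
*Xirp2*, chr2:67445752-67446001, plus strand: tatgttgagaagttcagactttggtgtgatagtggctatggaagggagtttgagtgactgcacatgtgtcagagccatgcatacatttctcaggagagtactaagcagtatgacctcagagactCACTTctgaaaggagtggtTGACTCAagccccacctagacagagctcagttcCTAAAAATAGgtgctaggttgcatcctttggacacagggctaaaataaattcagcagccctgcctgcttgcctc
*Rcan1*, internal start, chr16:92400079-92400328, minus strand: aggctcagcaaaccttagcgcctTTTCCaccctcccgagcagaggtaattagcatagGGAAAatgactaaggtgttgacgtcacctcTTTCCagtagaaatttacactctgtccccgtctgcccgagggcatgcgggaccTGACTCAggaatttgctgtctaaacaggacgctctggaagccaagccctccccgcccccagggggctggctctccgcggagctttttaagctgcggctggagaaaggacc

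In the *Nppa* window a GATA match lies at bases -122 to -117 from the start, beside 2 NKX2-5 matches at -239 and -65. The *Xirp2* window holds an AP-1 match from -107, an NKX2-5 match from -126 and a MEF2 match at bases -74 to -65. *Rcan1* has 2 RefSeq starts 66091 bases apart, and the internal one, known as the start of the calcineurin-responsive short form, has 3 NFAT core matches and an AP-1 match from -110. None of the searched motifs is in the window of the distal *Rcan1* start (chr16:92466170-92466419), which has a GC content of 64.8% against 56.4% at the internal start. Before the *Ankrd1* start (chr19:36119845-36120094) there are 2 matches to M-CAT (CATTCC) and a GATA match, but GENCODE M21 places all 250 of these bases in exons of *Ankrd1*, so they are not printed. Among 32536 promoter windows of the same length, the NFAT core is in 55.7%, NKX2-5 in 40.6%, GATA in 16.5%, M-CAT in 12.6%, AP-1 in 6.73% and MEF2 in 0.513%. The CArG box, found in 1.48% of windows, is in none of these. FPKM is given per gene, so the use of the 2 *Rcan1* starts cannot be told apart.

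Levels of *Nppa*, *Ankrd1*, *Xirp2* and *Rcan1* were lower in the FGF1 variant group, by a ratio of group means of 0.220 for *Nppa*, 0.585 for *Ankrd1*, 0.677 for *Xirp2* and 0.765 for *Rcan1*. By limma with Benjamini-Hochberg adjustment, 0 of the 5 had an adjusted p under 0.05, which 0.0980% of the genes tested reached. Of the 5, 4 had an unadjusted limma p under 0.05, all of them lower, where 10.0% of all genes tested were lower by the same measure. The 5 genes were chosen with earlier results of these data known, so setting them beside all genes tested is a description and not a test. The groups did not overlap for 2 of the 5, *Xirp2* and *Rcan1*, against 13.6% of all genes tested with FGF1 variant below vehicle. The median log2 fold change over the 5 was -0.77, against -0.02 over all genes tested. This median counts *Sln*, whose mean reached 1 FPKM only through vehicle replicate 2. The genes with the largest differences were the ones whose groups overlapped, as the plot of FPKM by mouse shows. In whole tissue, fewer cells of a type and less RNA per cell cannot be told apart.

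**Figure D1:**
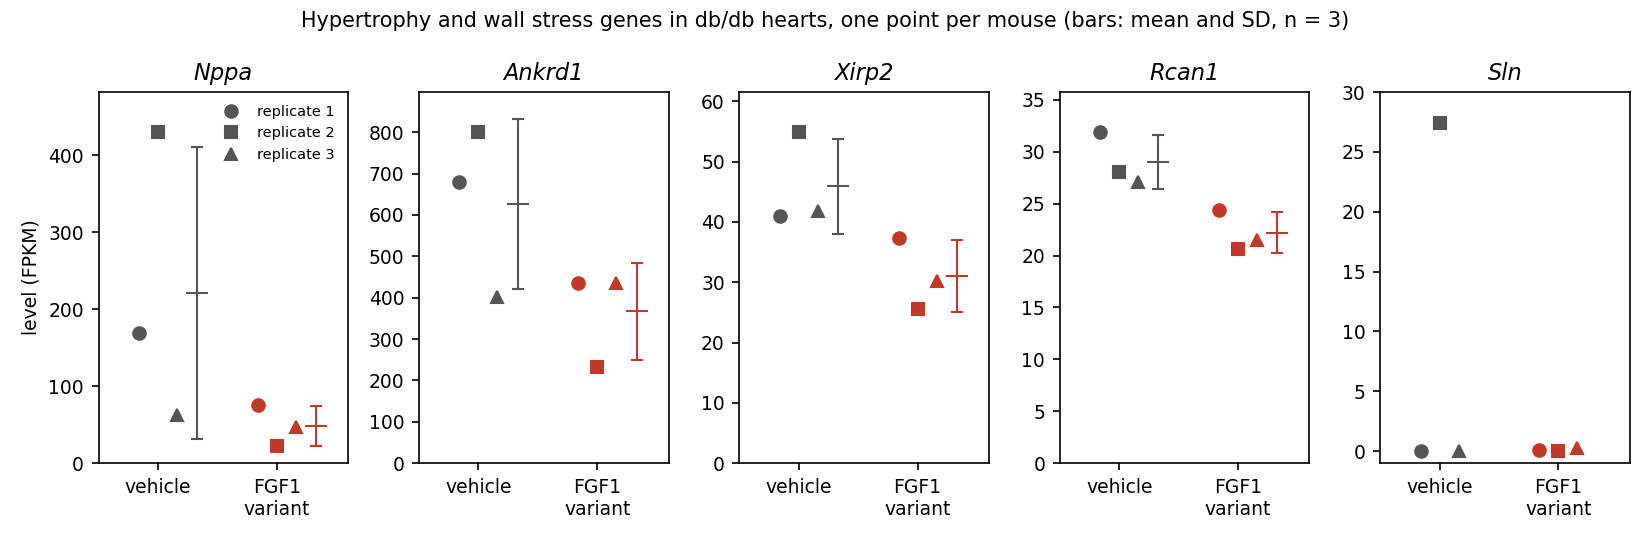
FPKM of *Nppa*, *Ankrd1*, *Xirp2*, *Rcan1* and *Sln* (vertical axis, linear, with its own range for each gene) in each vehicle mouse (grey) and FGF1 variant mouse (red), with symbols for the replicate number and bars for mean and SD (n = 3). For *Sln*, listed at 0 in 3 mice, no mean is drawn. The *Xirp2* and *Rcan1* groups are separate, while vehicle replicate 3 lies among the FGF1 variant mice for *Nppa* and *Ankrd1*.

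*Nppa* (ENSMUSG00000041616) lies on the plus strand of chromosome 4 from 148000722 to 148002079 (GRCm38). Its level was 169.6, 430.5 and 62.2 FPKM in vehicle replicates 1, 2 and 3, and 75.4, 22.7 and 47.4 FPKM in FGF1 variant replicates 1, 2 and 3. Vehicle replicate 2 stood far above every other mouse, vehicle replicate 3 was below FGF1 variant replicate 1, and 2 treated mice were below all vehicle mice. The means were 220.8 ± 189.4 FPKM (SD, n = 3) and 48.5 ± 26.4 FPKM (SD, n = 3), with a coefficient of variation of 85.8% in the vehicle group and 54.4% in the treated group. The log2 fold change was -1.91 (SE 0.70, 95% interval -3.57 to -0.25, limma p = 0.0296, adjusted p = 0.231, two-sided exact permutation p = 0.2, where 3 mice against 3 cannot go below 0.1). Only 5 of the 2041 genes, *Nppa* included, had a log2 fold change as low.

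The size of the *Nppa* difference rested on single mice. Without vehicle replicate 2 the log2 fold change was -1.23 (limma adjusted p = 0.424), no longer at an unadjusted p under 0.05. Without vehicle replicate 3 it was -2.61, and only then did *Nppa* pass the adjusted threshold (limma adjusted p = 0.0389). The value was below 0 in all 17 alternatives run and had an unadjusted p under 0.05 in 12 of them, and the adjusted p ranged from 0.0389 to 0.532. The deposited interval for *Nppa* ends at 148004014, the end of the antisense gene *Gm13054*, which covers 532 of the 865 exon bases of *Nppa* and is not among the genes analysed. Strand was not stated for the counting, so reads of the pair cannot be told apart.

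*Ankrd1* (ENSMUSG00000024803), on the minus strand of chromosome 19 from 36111961 to 36120099, was among the most abundant messages, with a mean above that of 99.0% of the genes tested. Vehicle replicates 1, 2 and 3 had 680.2, 801 and 401 FPKM, and FGF1 variant replicates 1, 2 and 3 had 435, 231 and 435 FPKM. As for *Nppa*, vehicle replicate 3 fell within the treated range, and 1 treated mouse was below every vehicle mouse. The means were 627 ± 205 FPKM (SD, n = 3) in vehicle and 367 ± 118 FPKM (SD, n = 3) in FGF1 variant hearts. The log2 fold change was -0.77 (SE 0.33, 95% interval -1.54 to -0.01, limma p = 0.0489, adjusted p = 0.288, two-sided exact permutation p = 0.3). It ranged from -1.06 without vehicle replicate 3 to -0.47 without FGF1 variant replicate 2, and the unadjusted p was under 0.05 in 7 of 17 alternatives.

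*Xirp2* (ENSMUSG00000027022), on the plus strand of chromosome 2 from 67446002 to 67526614, was at 41.0, 55.0 and 41.8 FPKM in vehicle replicates 1, 2 and 3. In FGF1 variant replicates 1, 2 and 3 it was at 37.4, 25.6 and 30.2 FPKM, so every treated mouse lay below every vehicle mouse, the nearest pair being FGF1 variant replicate 1 and vehicle replicate 1. The means were 45.9 ± 7.85 FPKM (SD, n = 3) and 31.1 ± 5.91 FPKM (SD, n = 3). The log2 fold change was -0.55 (SE 0.16, 95% interval -0.93 to -0.17, limma p = 0.0108, adjusted p = 0.154, two-sided exact permutation p = 0.1, the smallest possible). The antisense gene *Gm13601* shares 168 of its 11979 exon bases.

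*Rcan1* (ENSMUSG00000022951), on the minus strand of chromosome 16 from 92391953 to 92470867, had the smallest difference of the 4 and the least spread. Its level was 31.9, 28.1 and 27.1 FPKM in vehicle replicates 1, 2 and 3 and 24.4, 20.7 and 21.5 FPKM in FGF1 variant replicates 1, 2 and 3, with no overlap. The means were 29.0 ± 2.57 FPKM (SD, n = 3) and 22.2 ± 1.97 FPKM (SD, n = 3), a coefficient of variation of 8.85% and 8.88%. The log2 fold change was -0.37 (SE 0.09, 95% interval -0.59 to -0.15, limma p = 0.00499, adjusted p = 0.117, two-sided exact permutation p = 0.1). *Xirp2* and *Rcan1* had an unadjusted p under 0.05 in all 17 alternatives, with log2 fold changes of -0.69 to -0.42 and of -0.44 to -0.30, but their adjusted p was at least 0.0741 and 0.0596 throughout.

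*Sln* (ENSMUSG00000042045), on the plus strand of chromosome 9 from 53850164 to 53854560, encodes a very short protein. Its coding sequence in GENCODE M21, 96 bases with the stop codon for 31 residues, lies within 1 of its 2 exons and is shown to make plain how short the coding part of its 1318-base transcript is, with the start and stop codons in capitals.
*Sln*, chr9:53853473-53853568, plus strand: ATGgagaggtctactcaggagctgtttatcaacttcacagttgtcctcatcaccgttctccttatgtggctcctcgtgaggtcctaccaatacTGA

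*Sln* was at 27.4 FPKM in vehicle replicate 2 and listed at 0 in vehicle replicates 1 and 3. In the FGF1 variant group it was at 0.127 FPKM in replicate 1, listed at 0 in replicate 2 and at 0.240 FPKM in replicate 3. A single library thus held nearly all of the listed *Sln* signal, that of the heart with the highest *Nppa*, *Ankrd1* and *Xirp2*. In this library *mt-Co2* is listed at 0, and a 0 for *Sln* in other mice need not mean absence either. The limma log2 fold change was -1.45 with a 95% interval from -4.30 to 1.40 (adjusted p = 0.585), and without vehicle replicate 2 it turned to 0.16 (adjusted p = 0.766). No difference in *Sln* between the groups was detectable in these mice.

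**Figure D2:**
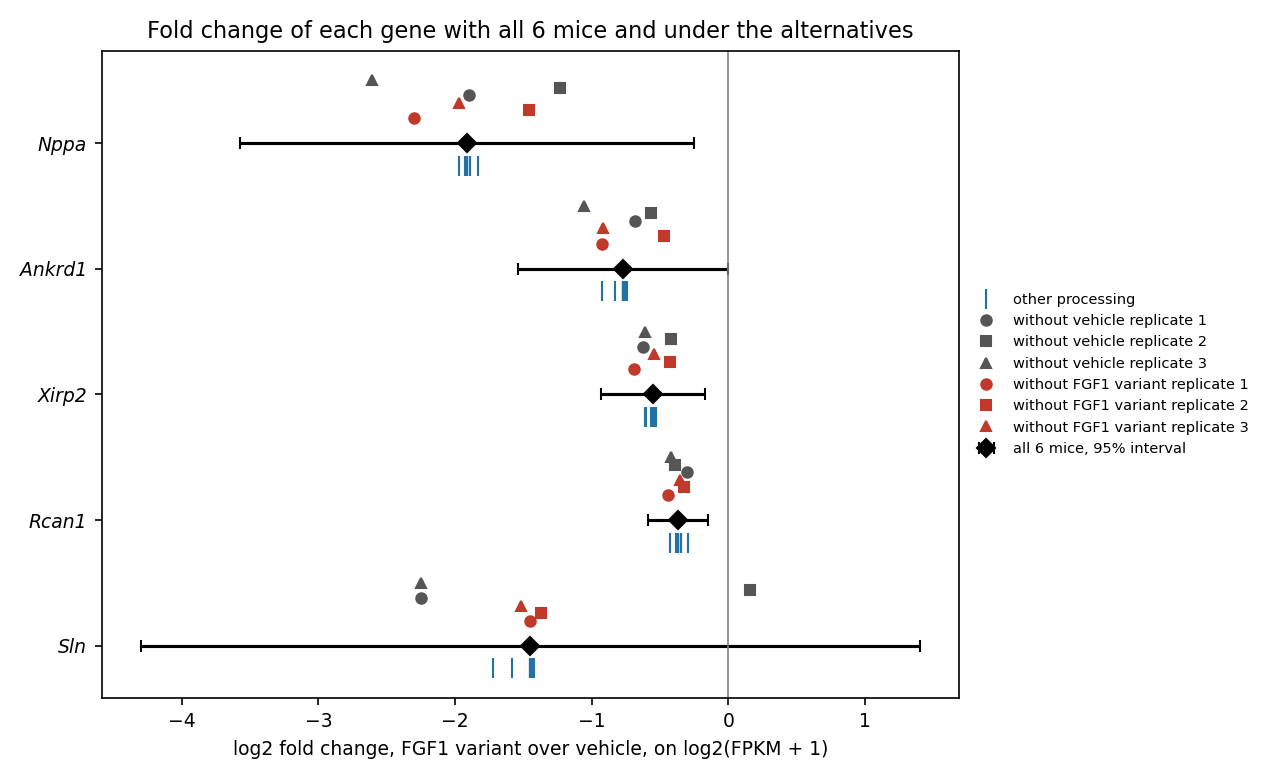
Log2 fold change of FGF1 variant over vehicle on log2(FPKM + 1) (horizontal axis) for each of the 5 genes with all 6 mice (diamond, 95% limma interval), with 1 mouse left out (symbols above) and with other scaling, filters, pseudocount or forms of the test (ticks below). Other processing moved *Nppa* only from -1.97 to -1.83, whereas leaving out 1 mouse moved it from -2.61 to -1.23, and *Sln* reached 0.16 without vehicle replicate 2.

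The order of the mice was similar for several of the genes. FGF1 variant replicate 2 was the lowest mouse for *Nppa*, *Ankrd1*, *Xirp2* and *Rcan1*, and vehicle replicate 2 the highest for *Nppa*, *Ankrd1*, *Xirp2* and *Sln*, while vehicle replicate 1 was the highest for *Rcan1*. With all mice, 4 of these genes had an unadjusted limma p under 0.05. Without FGF1 variant replicate 2, vehicle replicate 1 or vehicle replicate 2 there were 2, in each case *Xirp2* and *Rcan1*. Over all 2041 genes tested the number fell as well, from 349 to 231, 327 and 270 in the same order. Without vehicle replicate 3 it was 494, with 4 of these genes still among them. How much of the drop came from the smaller number of mice was not tested.

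**Figure D3:**
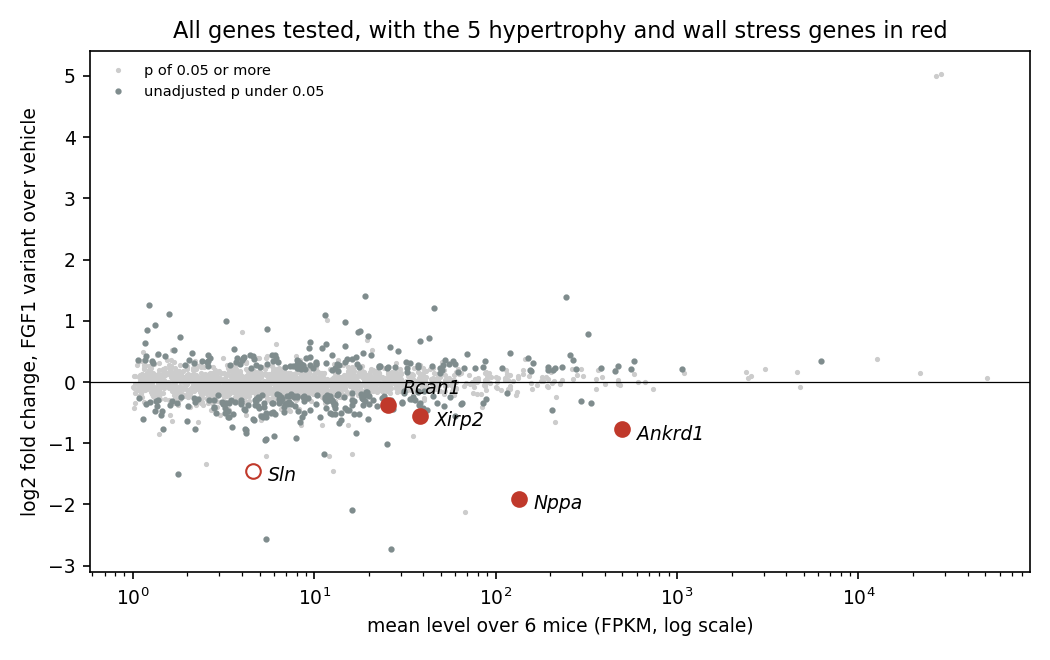
Log2 fold change of FGF1 variant over vehicle (vertical axis) against mean level over the 6 mice in FPKM (horizontal axis, log scale) for the 2041 genes tested, dark grey where the unadjusted limma p was under 0.05. The 5 genes are in red, filled where the unadjusted limma p was under 0.05 and open for *Sln*, where it was not. *Nppa* and *Ankrd1* lie far below 0 among the abundant genes.

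Other genes of the same pathways were read from 6 lists with 148 further genes, of which 26 were in the table and tested. Of these 26, 3 were lower and 3 were higher at an unadjusted limma p under 0.05, where 10.0% of all genes tested were lower, 7.10% higher and 17.1% either. Their median log2 fold change was -0.04, and 0 of them passed the adjusted threshold. Over 26 genes these shares are close to those of the whole table. Other well-known load markers, *Nppb*, *Myh7*, *Myh6*, *Acta1*, *Ankrd2*, *Ankrd23*, *Xirp1*, *Rcan2*, *Pln* and *Ttn*, were not analysed here.

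**Figure D4:**
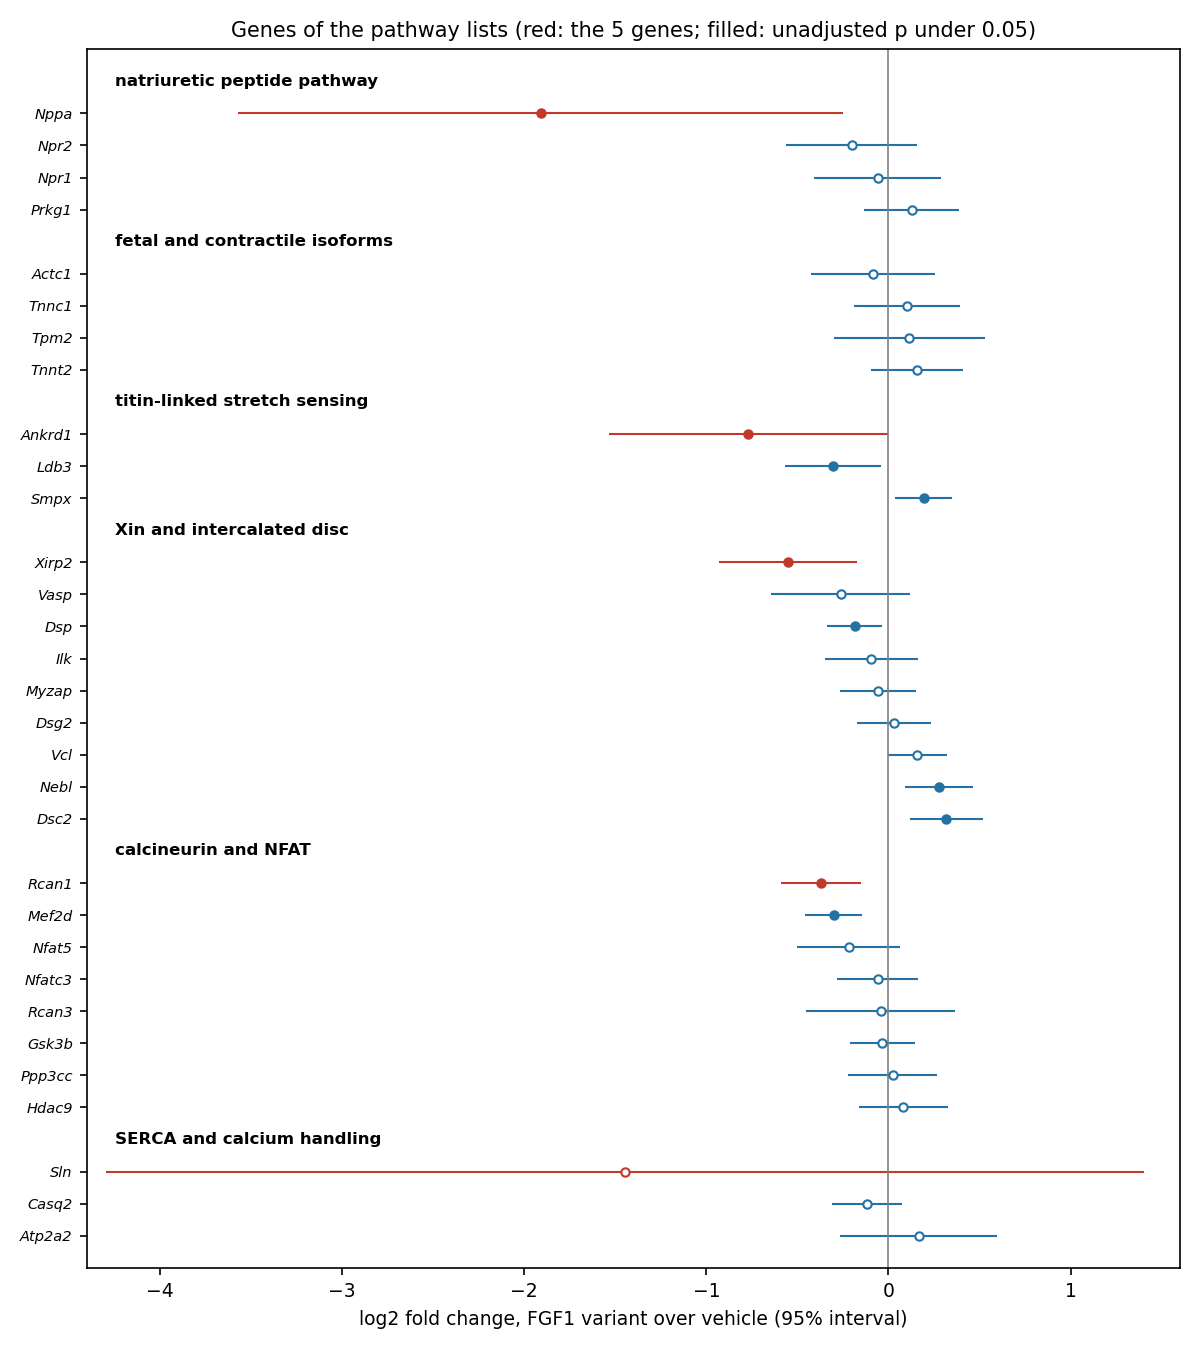
Log2 fold change of FGF1 variant over vehicle (horizontal axis, on log2(FPKM + 1)) of every tested gene of the 6 pathway lists, grouped by list, with 95% limma intervals, the 5 genes in red and filled points where the unadjusted p was under 0.05. The other genes lie between -0.31 for *Ldb3* and 0.32 for *Dsc2*, and *Rcan1*, the nearest of the 5 to 0, is only slightly further out at -0.37.

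In the natriuretic peptide pathway, the receptors *Npr1* and *Npr2* and the cyclic GMP-dependent kinase *Prkg1* were tested, and none had an unadjusted p under 0.05. *Npr1*, the receptor for the *Nppa* product, was at 5.50 ± 1.24 FPKM (SD, n = 3) in vehicle and 5.16 ± 0.34 FPKM (SD, n = 3) in FGF1 variant hearts, with a log2 fold change of -0.06 that changed sign under 1 of 5 other scalings. For *Npr2*, the receptor for C-type natriuretic peptide, the log2 fold change was -0.20, and for *Prkg1* it was 0.13. The contractile genes *Actc1*, *Tnnt2*, *Tnnc1* and *Tpm2* had log2 fold changes from -0.08 to 0.16, and 0 of the 4 had an unadjusted p under 0.05. Under quantile normalization *Actc1* moved from -0.08 to -0.74, about the size of the *Ankrd1* difference before it. *Ankrd1* itself moved from -0.77 to -0.93 under the same normalization. *Tnnt2* and *Tnnc1* turned negative there, at -0.12 and -0.14.

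Titin-linked genes went in both directions. *Ldb3*, which encodes the Z-disc protein cypher, was at 279, 338 and 372 FPKM in vehicle and at 272, 270.1 and 253 FPKM in FGF1 variant replicates 1 to 3, without overlap (log2 fold change -0.31, limma adjusted p = 0.230). *Smpx*, a small muscle protein linked to stretch, was at 187, 182 and 174 FPKM in vehicle and at 216, 208 and 197 FPKM in FGF1 variant replicates 1 to 3 (log2 fold change 0.19, limma adjusted p = 0.207). For both genes the groups were separate, but in opposite directions. The unadjusted limma p was under 0.05 in 9 of 17 alternatives for *Ldb3* and in 12 of 17 for *Smpx*.

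At the intercalated disc, where *Xirp2* acts, 8 other genes were tested. The desmosomal cadherin *Dsc2* (log2 fold change 0.32, limma adjusted p = 0.136) and the Z-disc protein gene *Nebl* (0.28, adjusted p = 0.153) were higher, and the desmosomal linker *Dsp* (-0.18, adjusted p = 0.212) was lower. *Dsc2* was at 10.2, 11.2 and 9.37 FPKM in vehicle and 12.7, 13.7 and 12.7 FPKM in FGF1 variant replicates 1 to 3, the reverse of *Xirp2*. The other 5, *Dsg2*, *Vcl*, *Vasp*, *Ilk* and *Myzap*, were not at an unadjusted p under 0.05. Of these, *Vcl* was higher in all 3 treated mice than in any vehicle mouse (log2 fold change 0.16, limma adjusted p = 0.301). Its unadjusted limma p was under 0.05 in 5 of 17 alternatives.

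Among 7 tested genes of calcineurin signalling, *Mef2d*, a transcription factor activated downstream of calcineurin, was lower in all 3 treated mice. Its level was 42.0, 38.2 and 38.8 FPKM in vehicle and 30.8, 32.0 and 33.1 FPKM in FGF1 variant replicates 1 to 3 (log2 fold change -0.30, limma adjusted p = 0.116), and it kept an unadjusted p under 0.05 in all 17 alternatives. *Rcan3*, a relative of *Rcan1*, had a log2 fold change of -0.04 and *Nfat5* one of -0.22 (limma adjusted p = 0.400). *Nfatc3*, the phosphatase subunit gene *Ppp3cc*, *Hdac9* and *Gsk3b* lay between -0.06 and 0.08. For *Atp2a2*, which encodes the SERCA pump that sarcolipin slows, vehicle replicates 1 to 3 had 1741, 2238 and 2917 FPKM and FGF1 variant replicates 1 to 3 had 2401, 2684 and 2491 FPKM, a log2 fold change of 0.17 (limma adjusted p = 0.691) that was negative under 1 of 5 other scalings. *Casq2*, the calcium store protein, had a log2 fold change of -0.12.

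Because *Nppa* and *Sln* are both abundant in atria, atrial markers were examined. Of 16 listed, the table held only *Nppa* and *Sln* themselves, with a sum of 62.2 to 458 FPKM in vehicle and 22.7 to 75.5 FPKM in FGF1 variant hearts, so the part of atrial tissue in these differences was not tested. Each library was also scaled to the cardiomyocyte markers, a choice made after the data were seen. The log2 fold changes were then -1.97 for *Nppa*, -0.83 for *Ankrd1*, -0.61 for *Xirp2* and -0.43 for *Rcan1*, with adjusted limma p from 0.0741 to 0.193. Under this scaling the median over all genes tested moved as well, from -0.02 to -0.07.

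Markers of other cells in the heart were read in the same way. The fibroblast gene *Dcn*, the only 1 of 9 fibroblast markers in the table, was at 284, 288 and 154 FPKM in vehicle and 409, 368 and 431 FPKM in FGF1 variant replicates 1 to 3 (log2 fold change 0.79, limma adjusted p = 0.154). Of 2 smooth muscle and pericyte markers, *Acta2*, a smooth muscle and myofibroblast actin, had a log2 fold change of 0.82 (limma adjusted p = 0.116) and *Pdgfrb*, a receptor of pericytes, one of -0.21 (limma adjusted p = 0.566). Of 2 ventricular markers, the potassium channel gene *Kcnj2* had a log2 fold change of 0.56 (limma adjusted p = 0.116) and the transcription factor gene *Irx3* one of -0.11 (limma adjusted p = 0.819). The endothelial markers *Tie1* and *Emcn* had log2 fold changes of -0.32 and 0.09, and both were lower in vehicle replicate 3 than in the other vehicle mice. The leukocyte marker *Ptprc*, the only 1 of 9 in the table, was at 1.67, 1.32 and 3.43 FPKM in vehicle replicates 1 to 3. It lay between 1.01 and 1.21 FPKM in the treated mice (log2 fold change -0.54, limma adjusted p = 0.298). Vehicle replicate 2, the heart with the most *Nppa* and *Sln*, also had the most of the globin gene *Hbb-bt*, at 397 FPKM against 118 to 204 FPKM in the other 5. The skeletal muscle markers *Tnni2*, *Actn3* and *Pvalb* were at or below 1.31 FPKM in every library, while *Mybpc2* was highest in vehicle replicate 2 at 8.73 FPKM. *Adipoq* was at most 1.21 FPKM and the kidney gene *Slc12a1* at most 0.844 FPKM. The part of these cells in the results was not tested.

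The genes whose levels followed each of the 5 most closely were ranked by Pearson's r of log2(FPKM + 1) over the 6 libraries, which is a description over few and shared libraries. For *Nppa* they were *Phc2* (r = 0.987), *Eaf1* (0.983) and *Ubtf* (0.982), and for *Ankrd1* they were *Eif3d* (0.989), *Rbm22* (0.987) and *Tgfb1* (0.982), which encodes the cytokine TGF-beta 1. *Xirp2* was followed by *Myo18a* (0.985), *Prkca* (0.984) and *Gm26532* (0.984), and *Rcan1* by *Tmem183a* (0.995), *Rnf44* (0.994) and *Zc3hc1* (0.982). *Prkca*, which encodes protein kinase C alpha, was at 5.54, 7.33 and 4.76 FPKM in vehicle and had a log2 fold change of -0.62. For *Sln* the genes were *Gclc* (0.980), *Amot* (0.978) and *Apoc3* (0.953), a ranking that follows vehicle replicate 2. Among the 2041 genes tested, an r of at least 0.9 was reached by 85 for *Nppa*, 77 for *Ankrd1*, 63 for *Xirp2*, 76 for *Rcan1* and 12 for *Sln*. How many a typical gene reaches was not counted.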

How the data were processed

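Poly(A) RNA of 6 hearts was sequenced. The authors trimmed reads with Trimmomatic and deposited 1 FPKM value per gene and mouse. The submitters' processing notes list Bowtie 0.12.2, HISAT2 2.0, StringTie 1.3.0 and mm8, whereas 4111 of the 4132 gene identifiers are in GENCODE M21 of GRCm38, all on the same chromosome, and 3143 have an equal start or end. The table analysed here ends partway through a row and holds only part of the genes, so no list was tested as a set. The methods describe single-end and the labels paired-end reads, and the labels' account of library preparation speaks of adipose tissue.

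Values were transformed to log2(FPKM + 1) and compared with limma 3.58.1 in R 4.3.3 (eBayes with trend, Benjamini-Hochberg, threshold 0.05) over 2041 genes whose mean reached 1 FPKM. The fit was tested on simulated data. The 5 genes and all lists were chosen with earlier results of these data known. Genes named are these 5, the genes of each list at an unadjusted p under 0.05 or the smallest up to 3, other known load markers, the 3 genes most alike to each, and markers. The other markers were added after their values were seen. Each mouse was mapped by its label. Alternatives were a pseudocount of 0.1, no filter or a minimum of 5 FPKM, 5 other scalings, a replicate block, eBayes without trend or robust, and each mouse left out in turn.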

Additional observations from a re-analysis of the deposited data

How the results depend on the processing

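The 2 genes past the adjusted threshold became 1 with the GC correction, eBayes without trend, median ratio scaling or quantile normalization, 4 with a pseudocount of 0.1, and 5 with robust eBayes or a threshold of 0.1. With no filter limma tested 4132 genes, of which 488 had an unadjusted p under 0.05, against 349 of 2041 in the main fit. The number past the adjusted threshold was then 0. Leaving out each mouse gave 0 to 82 such genes, 82 without vehicle replicate 3 and 0 without vehicle replicate 2 or FGF1 variant replicate 2, where limma gave 270 and 231 genes at an unadjusted p under 0.05, in a range of 231 to 494 over the 6 mice. Of the 5 load genes, 0 to 1 passed the adjusted threshold and 2 to 4 the unadjusted one when a mouse was left out, and 2 with robust eBayes, where *Nppa* and *Ankrd1* did not. Leaving out a mouse moved the other pathway genes at an unadjusted p under 0.05 from 6 to between 3 and 9, *Nppa* between -2.61 and -1.23 and *Sln* between -2.25 and 0.16, its direction reversed without vehicle replicate 2. A minimum of 5 FPKM left no value for *Sln*. The labels do not say that the replicate numbers pair the mice, and same-numbered deviations correlated at -0.01, -0.16 and -0.22. With the replicate block the count past the adjusted threshold was 0, with 269 genes at an unadjusted p under 0.05 by limma, and the block kept the direction of all 5 genes. Of the 349 genes at an unadjusted p under 0.05, 145 were higher and 204 lower, against 191 and 161 with the GC correction and 63 and 243 with scaling to cardiomyocyte markers, chosen after the data were seen. The causes were not tested. With 3 mice in each group and FPKM in place of counts, differences of the size of the spread of *Nppa* or *Sln* could not be resolved.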
